A study of Mus musculus with 50 samples.

Results

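The hypothalamic paraventricular nucleus (PVN) of DBA/2J mice was profiled 4 h after a 5 min forced swim. Of the 50 two-colour cDNA arrays of the series, the 10 that set the stressed DBA/2J pool against the unstressed DBA/2J pool are described here, and they were chosen by their labels alone. Each array carried 22824 cDNA clones besides 1368 control spots. Both pools came from male mice of the inbred strain DBA/2J, 3 to 5 months old and housed singly, and the labels name no transgene and no drug. Stressed mice swam and were killed 4 h later, and unstressed mice were killed at the same time of day without swimming. The PVN and tissue next to it were punched from frozen sections, the RNA of 6 animals was pooled per condition, and the pool was amplified in consecutive rounds before labelling. The stressed pool was in the red dye Cy5 on 5 arrays and in the green dye Cy3 on the other 5. All 10 arrays thus compared 1 pool with 1 pool, and the p-values below measure the spread between hybridisations of these pools and not the spread between animals.

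The PVN is the hypothalamic nucleus that starts the hormonal stress response. Its parvocellular neurons release corticotropin-releasing hormone and vasopressin, which drive corticotropin and then glucocorticoid secretion, and glucocorticoids feed back on the nucleus through their receptor. Other PVN neurons make thyrotropin-releasing hormone, which drives the thyroid axis, or release vasopressin and oxytocin into the blood. A forced swim is a short, strong stressor that activates this axis, and hours later the hormone pulse has passed while transcripts that follow it can still differ.

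Every log2 ratio below is stressed over unstressed as the labelled dyes give it, so that a negative value means less signal from the stressed pool. The fold changes that the study printed for this comparison carry the opposite sign, as do those it printed for C57BL/6J and for 8 h. The direction it gives for Gnai2 at 4 h from real-time PCR of unpooled samples, a measurement outside these files, is also opposite to that of the labelled dyes. The study further reports up-regulation by in situ hybridisation, without showing those values, and of App at 8 h by real-time PCR. The direction of the values below is therefore not settled. With the sign turned every value below called lower would be higher and the reverse. For example, Vamp2, called at -1.32 below, would then stand at 1.32, Trh at 0.75 in place of -0.75, Gnai2 at 0.99 in place of -0.99 and Clpx at -1.06 in place of 1.06. Sizes, counts and p-values do not depend on that choice.

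With the labelled dyes, 35 of 22824 clones, or 0.153%, passed the test of a mean log2 ratio of at least 0.5 either way, a fold of 1.414, with an adjusted p under 0.05 in limma. Of these, 32 clones (0.140% of all) were lower and 3 (0.0131%) were higher in the stressed pool. The lower clones held genes of synaptic vesicle release (Vamp2, Cplx2 and Syt4) and of autophagy and vesicle acidification (Map1lc3a, Atp6v0a1 and Atp6v1g2). They also held genes of the cytoskeleton (Actb, Ina and Brsk2), the G protein gene Gnai2, the myristoyltransferase gene Nmt1 and the peptide hormone gene Trh. Their log2 ratios ran from -1.32 to -0.69. A total of 28 called clones carried a gene symbol and stood for 27 genes, while 7 were unnamed. The SE of the called clones was 0.113 to 0.180 and their adjusted p 0.00944 to 0.0351. Of the 35, 34 clones kept 1 sign on 10 of 10 arrays, against 1.23% of all clones, and Gnai2 on 9 of 10, but the test itself favours such clones. In pooled tissue, fewer cells of a type and less RNA per cell cannot be told apart. When any 1 of the 10 arrays was left out, 12 to 17 of the clones were called. The clones of Vamp2, Map1lc3a, Nmt1, Brsk2, Ncdn, Snrpn and Atp6v0a1 passed in all 10 of these fits, that of Actb in 9 and that of Gnai2 in 1. Those of Trh, Ina, Syt4, Set and Atp6v1g2 passed in 0, although their means moved little, as between -0.79 and -0.71 for Trh. From the Cy5 or the Cy3 arrays alone, 0 clones were called.

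**Figure D1:**
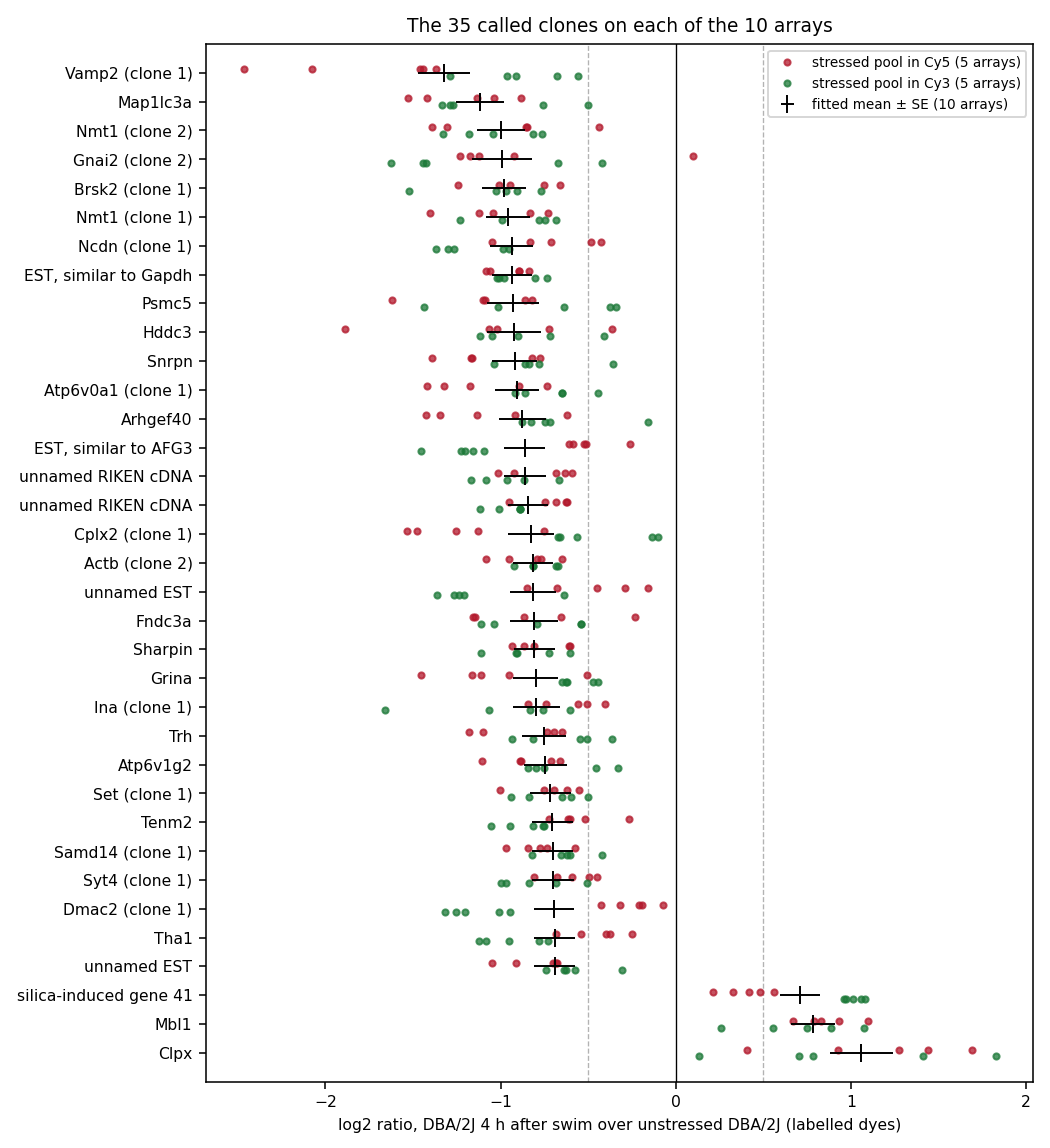
Log2 ratio (x axis, stressed over unstressed DBA/2J by the labelled dyes) of the 35 called clones (rows) on each of the 10 arrays, red where the stressed pool was in Cy5 and green where it was in Cy3, with the fitted mean and its SE in black and dashed lines at 0.5 either way. All points lie on one side of 0 except 1 array of Gnai2, at 0.10. Clone numbers rank the clones of a gene by brightness.

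The hybridisations were dim and single arrays were noisy. The median Cy5 signal was 154 to 193 scanner units, the median Cy3 signal 278 to 458, and 16.1% to 31.6% of clones exceeded the 95th percentile of the empty spots in a channel. A clone is called bright here when its mean intensity over the 10 arrays exceeded that percentile, 759 units. This held for 4592 clones, 20.1% of all, and for 31 of the 35 called clones (30 of the lower and 1 of the higher). The median SE was 0.137 for bright clones and 0.194 for the others, so a change of a given size was easier to call in a bright clone. Across all clones, arrays of the same dye orientation correlated with r between 0.063 and 0.133 and arrays of opposite orientation with r between -0.072 and 0.007, so most of what arrays shared followed the dyes. Dye orientation was therefore a term of the model. When the 4592 bright clones alone were tested, 224 were called (4.88%), 63 higher (1.37%) and 161 lower (3.51%), and these held 31 of the 35.

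Promoters are shown for 3 genes with lower clones: Nmt1 and Ina, of which more than 1 clone was far below 0, and Trh, the PVN hormone gene. They are RefSeq sequences on the mouse build GRCm38.p6, from 250 bases before the start to 50 after it, written 5′ to 3′ on the gene's strand. Capitals mark the GC box GGGCGG and, in Trh, also the core TGACG of the cAMP response element, on either strand.
Nmt1, chr11:103028293-103028592, plus strand: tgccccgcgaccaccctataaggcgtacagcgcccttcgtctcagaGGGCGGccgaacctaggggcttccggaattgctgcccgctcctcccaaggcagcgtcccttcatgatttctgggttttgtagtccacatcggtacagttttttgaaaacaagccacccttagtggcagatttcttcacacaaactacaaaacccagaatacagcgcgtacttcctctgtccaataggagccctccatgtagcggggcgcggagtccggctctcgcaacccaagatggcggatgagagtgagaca
Ina, chr19:47014431-47014730, plus strand: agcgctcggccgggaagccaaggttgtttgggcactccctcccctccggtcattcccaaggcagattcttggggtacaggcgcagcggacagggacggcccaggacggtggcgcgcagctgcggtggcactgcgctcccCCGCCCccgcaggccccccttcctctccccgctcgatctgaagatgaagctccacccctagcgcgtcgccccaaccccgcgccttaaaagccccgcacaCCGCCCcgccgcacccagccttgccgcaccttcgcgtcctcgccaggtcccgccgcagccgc
Trh, chr6:92244601-92244900, minus strand: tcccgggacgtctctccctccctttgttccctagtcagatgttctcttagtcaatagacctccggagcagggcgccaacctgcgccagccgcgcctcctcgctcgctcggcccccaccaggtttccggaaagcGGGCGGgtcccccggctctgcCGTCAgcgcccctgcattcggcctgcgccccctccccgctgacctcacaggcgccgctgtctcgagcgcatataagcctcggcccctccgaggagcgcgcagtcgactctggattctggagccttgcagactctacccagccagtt
RefSeq promoters were found for 16 of the 25 genes with lower clones, 24 promoters in all. The GC box, searched on both strands, was in 12 of these 24 (50%) and in 35.7% of all 32851 promoters. The core TGACG was in 1 of the 24, that of Trh at position -96 from the start, and in 20.8% of all promoters. The whole element TGACGTCA, which overlaps that core, was in 0 of the 24 and in 1.79% of all. The glucocorticoid response element, read as AGAACA, any 3 bases and the reverse complement of AGAACA, was in 0 of the 24 and in 0.00913% of all, and its arm AGAACA was in 2 of 24, those of Trh and Psmc5, and in 19.0% of all. The E-box CACGTG was in 3 of 24 promoters and in 7.15% of all. These were 1 promoter of Set and 2 overlapping promoters of Dmac2 that share the same site. These are letter matches in a short window and not sites shown to be bound.

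Synaptic vesicle release was the function with the largest difference in a single clone. Vamp2 (synaptobrevin) is the vesicle SNARE that fuses synaptic vesicles with the plasma membrane. Its brighter clone measured -2.47 on the lowest array, -1.33 at the median and -0.56 on the highest, and all 10 arrays were below 0. The 5 Cy5 arrays (stressed pool in Cy5) lay between -2.47 and -1.37 and the 5 Cy3 arrays between -1.29 and -0.56, so the orientations did not overlap although both were below 0. The fitted mean was -1.32 ± 0.147 (SE, n = 10 arrays; adjusted p = 0.00944, limma), a 2.50-fold lower signal. A second, dim clone of Vamp2 gave -0.43 ± 0.179, with an unadjusted p of 0.0298 in limma, and was not called. Cplx2 (complexin 2), which clamps and primes the SNARE complex, measured -1.54, -0.71 and -0.10 on its lowest, median and highest array, and its mean was -0.83 ± 0.132 (adjusted p = 0.0272, limma). Syt4, a synaptotagmin of vesicles and dense-core granules, measured -1.0, -0.68 and -0.45 in the same order with a mean of -0.70 ± 0.119 (adjusted p = 0.0309, limma). For Cplx2 the Cy5 arrays were the lower ones, with no overlap, and for Syt4 the orientations overlapped.

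The wider list of synaptic vesicle genes held 91 clones. Of these, 3 were called lower and 0 higher, and by the nominal p, meaning under 0.05 without adjustment, 18 were lower (19.8%) and 2 higher, where 5.42% of all clones were lower and 5.25% higher. The median of the list was -0.08, against 0.00 for all clones, and the list's median was below 0 on 10 of 10 arrays, from -0.23 to -0.01. Among its 33 bright clones the median was -0.18, and 10 (30.3%) were lower at nominal p under 0.05, against 10.1% lower and 9.36% higher of all bright clones. Tested among bright clones alone, 7 clones of the list were called lower (21.2%, against 3.51% of bright clones), those of Bsn, Cplx2, Nsf, Syp, Syt4, Vamp1 and Vamp2. Syp (synaptophysin), an abundant vesicle membrane protein, measured -1.66, -0.89 and 0.16 on its lowest, median and highest array, and 8 of 10 arrays were below 0. Its mean of -0.87 ± 0.178 missed the threshold over all clones (adjusted p = 0.0802, limma) and passed it among bright clones. Bright clones of neuronal markers (18) had a median of -0.18 too, and those of astrocyte markers (30) of -0.15, and the part of cell make-up in the vesicle values was not tested.

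Clones of autophagy and of the vacuolar proton pump were lower as well. Map1lc3a (LC3A) is the ubiquitin-like protein that is attached to the growing autophagosome membrane. Its single clone measured -1.53, -1.21 and -0.50 on the lowest, median and highest array, with overlapping orientations, and its mean was -1.12 ± 0.136 (adjusted p = 0.0100, limma), a 2.17-fold lower signal. The vacuolar ATPase pumps protons into lysosomes, endosomes and synaptic vesicles. Its membrane subunit Atp6v0a1 measured -1.42, -0.88 and -0.45 and was lower by a mean of -0.91 ± 0.125 (adjusted p = 0.0105, limma). Its soluble subunit Atp6v1g2, the neuronal form of subunit G, measured -1.11, -0.78 and -0.33 and had a mean of -0.74 ± 0.121 (adjusted p = 0.0298, limma). None of these clones had an array above 0. In the list of autophagy and vacuolar ATPase genes, 64 clones in all, 3 were called lower and 0 higher, 13 (20.3%, against 5.42% of all clones) were lower and 3 higher at nominal p under 0.05, and the median was -0.08. The median was below 0 on 9 of 10 arrays. Among bright clones alone, 5 of 20 were called lower (25.0%, against 3.51% of bright clones), with Atp6v1f and Atp6v0c besides those named. The lower medians of bright neuronal and astrocyte markers given for the vesicle list stand beside these values too, and their part was not tested.

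Among cytoskeletal genes, 1 clone of Actb (beta-actin), which forms the actin filaments of all cells, measured -1.08, -0.80 and -0.65 on its lowest, median and highest array. Its mean was -0.82 ± 0.116 (adjusted p = 0.0118, limma). Ina (internexin alpha), an intermediate filament protein of neurons, measured -1.66, -0.75 and -0.40 in the called clone, and the lowest array stood apart from the other 9. That clone was lower by a mean of -0.80 ± 0.135 (adjusted p = 0.0309, limma) and takes its symbol from the study's own list, since its description in the files is older. The other clone of Ina, just below the empty-spot level, gave -0.71 ± 0.141 with an unadjusted p of 2.06e-04 in limma, also with 10 of 10 arrays below 0. Brsk2, a brain kinase that sets axon and dendrite polarity, measured -1.52, -0.96 and -0.66 and had a mean of -0.98 ± 0.127 (adjusted p = 0.0105, limma). The cytoskeleton, axon and adhesion list held 174 clones, of which 3 were called lower and 0 higher. At an unadjusted p under 0.05, 33 (19.0%, against 5.42% of all clones) were lower and 7 higher, 66.7% of the list lay below 0 against 49.5% of all clones, and its median was -0.06. With the stressed pool in Cy5 alone the list median was -0.13, and with it in Cy3 alone -0.02.

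Nmt1 (N-myristoyltransferase) attaches myristate to proteins such as the inhibitory G protein alpha subunits, one of which is the product of Gnai2. Of the 3 clones of Nmt1, the brightest measured -1.41, -0.91 and -0.68 on its lowest, median and highest array and the next -1.39, -0.95 and -0.44. These clones were lower by means of -0.96 ± 0.125 and -1.0 ± 0.135 (adjusted p = 0.0105 each, limma), and the orientations overlapped in both. The other, dim clone gave 0.18 ± 0.208. Gnai2, which lowers cAMP when receptors activate it, measured -1.62, -1.15 and 0.10 on its lowest, median and highest array, and 1 array with the stressed pool in Cy5 was above 0. The mean of that clone was -0.99 ± 0.172 (adjusted p = 0.0351, limma), and its brightness, 528 units, was below the level of empty spots given above. That clone passed in 1 of the 10 fits with 1 array left out. The other clone of Gnai2, the brighter one, gave -0.27 ± 0.170 (unadjusted p = 0.141, limma). In the G protein signalling list as a whole, 90 clones, 3 were called lower, 2 of Nmt1 and 1 of Gnai2, and 0 higher. At nominal p under 0.05, however, 11 were higher (12.2%, against 5.25% of all clones) and 9 lower (10.0%, against 5.42%). Both shares thus exceeded those of all clones, while the median of the list was 0.00.

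Of the hypothalamic peptides, Trh was the only one called. Its clone measured -1.18, -0.72 and -0.36 on the lowest, median and highest array, all below 0, and the orientations overlapped. The mean was -0.75 ± 0.125 (adjusted p = 0.0309, limma), a 1.68-fold lower signal. Avp and Oxt, the genes of vasopressin and oxytocin, each had 1 clone, and both were dimmer than the empty-spot level, at 453 and 165 units. Avp measured -0.99, 0.06 and 0.93 on its lowest, median and highest array (mean -0.15 ± 0.192) and Oxt -0.99, -0.38 and 1.21 (mean -0.19 ± 0.213). Crh was not matched to any clone description and was not analysed here. Sst (somatostatin) gave -0.43 ± 0.140 with an unadjusted p of 0.00863 in limma. The list of hypothalamic peptides, receptors and regulators held 28 clones, of which 1 was called lower, and its median was -0.13 with 6 of 10 arrays below 0.

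Other named clones called lower covered several functions. Snrpn, an imprinted gene for a spliceosomal protein of neurons, had a mean of -0.92 ± 0.127. Psmc5, an ATPase of the proteasome cap, had -0.93 ± 0.147, and Set, an inhibitor of protein phosphatase 2A and histone chaperone, had -0.71 ± 0.118. Ncdn (neurochondrin), a neuronal protein linked to neurite outgrowth, had -0.94 ± 0.123 in its called clone, but another of its 3 clones gave 0.50. The remaining ones with a symbol were Hddc3, Arhgef40, Fndc3a, Sharpin, Grina, Tenm2, Samd14, Dmac2 and Tha1, with means from -0.93 to -0.69. Sharpin is a subunit of the linear ubiquitin chain assembly complex, Grina a membrane protein named for its association with an NMDA receptor, and Tenm2, whose clone was dim, a teneurin of synaptic adhesion. Dmac2, a factor of mitochondrial complex I assembly, showed how far dyes could part, since the Cy5 arrays lay between -0.43 and -0.07 and the Cy3 arrays between -1.32 and -0.94. Ranges of the orientations did not overlap in 7 of the 35 called clones, beside 16.2% of all bright clones and 5.00% of all clones, and in 3 of the 7 the Cy5 arrays were the lower ones.

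Only 3 clones were called higher, and just 1 of these was bright. The bright one, described in the files as silica-induced gene 41 and without a current symbol, measured 0.21, 0.76 and 1.08 on its lowest, median and highest array and had a mean of 0.71 ± 0.113 (adjusted p = 0.0272, limma), a 1.64-fold higher signal. Its Cy5 arrays lay at 0.21 to 0.56 and its Cy3 arrays at 0.96 to 1.08. Clpx, the unfolding ATPase of a mitochondrial matrix protease, measured 0.13, 1.10 and 1.83 with a mean of 1.06 ± 0.180 (adjusted p = 0.0309, limma). Mbl1, a mannose-binding lectin known from liver, measured 0.26, 0.81 and 1.10 with a mean of 0.78 ± 0.126 (adjusted p = 0.0272, limma). The brightness of Clpx (153 units) and Mbl1 (114 units) was below the level of empty spots, so their log2 ratios are given as measured and no fold is drawn from them.

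Chaperones fold proteins and hold stress-damaged ones. Of 128 clones, 1 (Clpx) was called higher and 0 lower, and 20 (15.6%) were higher and 5 lower at nominal p under 0.05, where 5.25% of all clones were higher. The median was 0.05 and lay below 0 on 1 of 10 arrays. Cct4, a subunit of the cytosolic chaperonin, measured 0.28, 0.55 and 0.88 on its lowest, median and highest array with a mean of 0.58 ± 0.117 (adjusted p = 0.0781, limma) and passed among bright clones alone, as did 2 other chaperone clones on the higher side and 2 on the lower side. Among the members with a negative value, Bag6 gave -0.73 ± 0.152 (adjusted p = 0.0816, limma). Splicing and ribonucleoprotein genes, 139 clones, had 10 clones higher and 3 lower at nominal p under 0.05 and a median of 0.03, while Snrpn, called lower, is on that list.

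**Figure D2:**
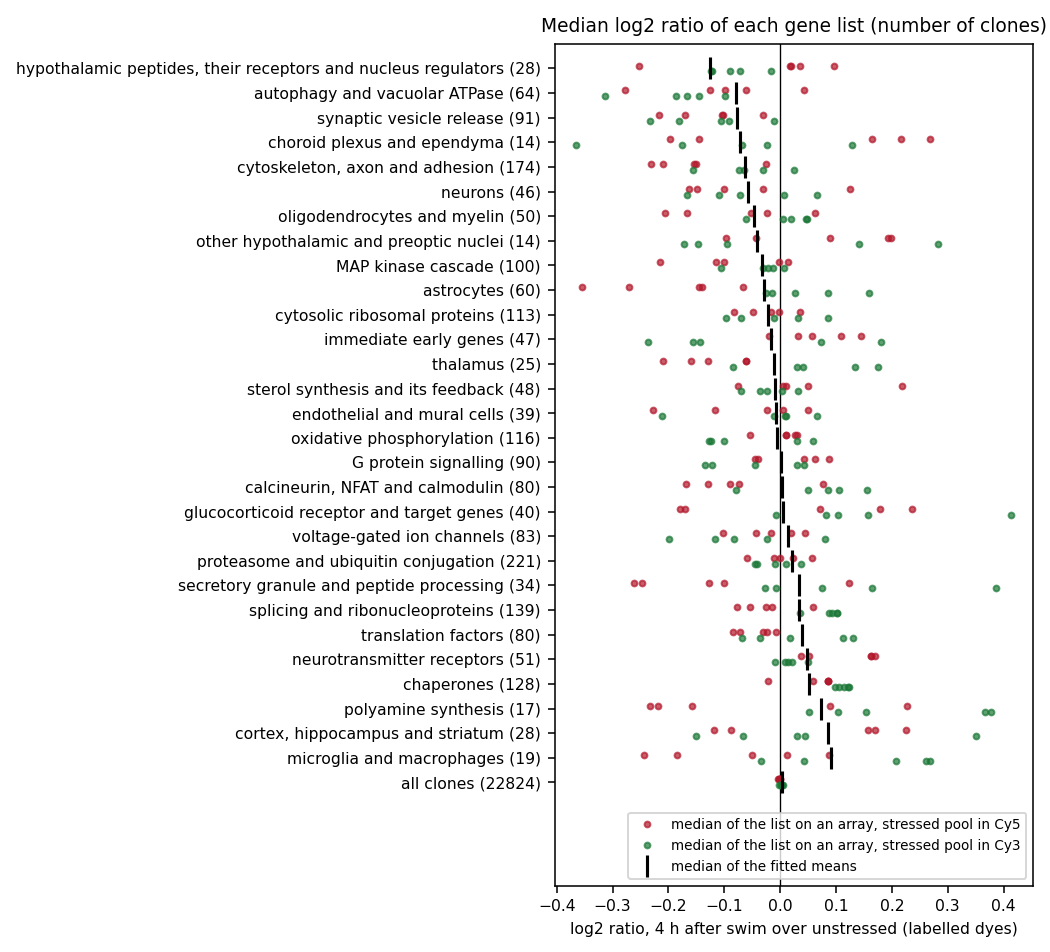
Median log2 ratio (x axis, stressed over unstressed by the labelled dyes) of each gene list with 10 or more clones (rows, number of clones in brackets) on each array, red for the stressed pool in Cy5 and green for Cy3, with the median of the fitted means as a black bar. The synaptic vesicle list lies below 0 on 10 of 10 arrays, from -0.23 to -0.01, while most lists lie on both sides of 0.

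Lists closer to the hormonal stress response are given next. Over all clones 0.153% were called, so 0 called in a list of this size says nothing about that list. At nominal p under 0.05, 5.25% of all clones were higher and 5.42% lower. The glucocorticoid receptor and its target genes, 40 clones, had 0 called either way, 3 higher and 2 lower at nominal p under 0.05, and a median of 0.01. The receptor gene itself, Nr3c1, measured -0.17, 0.62 and 0.97 on its lowest, median and highest array, with 9 of 10 above 0. Its mean of 0.56 ± 0.130 was not called over all clones (adjusted p = 0.117, limma) and passed among bright clones alone. It was 1 of 10 bright clones of the list, where 1.37% of all bright clones passed on the higher side. The mineralocorticoid receptor gene Nr3c2, a dim clone, gave 0.54 ± 0.184 (unadjusted p = 0.0109, limma), and the clock gene Per2, which glucocorticoids are known to induce, gave 0.49 ± 0.164 (unadjusted p = 0.0100, limma). Immediate early genes, 47 clones of which 6 were bright, had 0 called either way, 2 higher and 1 lower at nominal p under 0.05, and a median of -0.02. The MAP kinase cascade, 100 clones, had 0 called, 5 higher and 10 lower, and its member Mapk3 (ERK1) gave -0.84 ± 0.186 (adjusted p = 0.103, limma).

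Of the remaining function lists, calcineurin with NFAT and calmodulin (80 clones), ribosomal proteins (113), translation factors (80), oxidative phosphorylation (116), sterol synthesis (48), polyamine synthesis (17), ion channels (83) and secretory granules (34) had 0 clones called either way. With 0.153% of all clones called, that says nothing about these lists. The proteasome and ubiquitin list (221 clones) had 1 called lower, Psmc5, and the neurotransmitter receptor list (51 clones) also 1, Grina. Ribosomal protein clones had 10 higher (8.85%, against 5.25% of all clones) and 11 lower (9.73%, against 5.42%) at nominal p under 0.05. Their median was -0.02, where it was 0.15 in C57BL/6J at 4 h and 0.12 in DBA/2J at 8 h. The polyamine list had a pair of clones of Amd1, which makes decarboxylated S-adenosylmethionine, at 0.52 ± 0.137 and 0.56 ± 0.128, and both passed among bright clones alone. In sterol synthesis, Srebf2, the transcription factor that raises it, gave -0.66 ± 0.148 and Insig2, which retains that factor in the endoplasmic reticulum, 0.54 ± 0.152. Both passed only among bright clones.

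The study listed 15 genes as examples for this comparison, chosen on these arrays, and they were measured by 32 clones. Of these clones, 7 from 6 genes were called (Vamp2, Map1lc3a, Nmt1, Gnai2, Ina and Trh), and 12 were lower and 7 higher at nominal p under 0.05. Hhex, a homeobox gene, gave 0.79 ± 0.159 (adjusted p = 0.0761, limma) in a dim clone with 10 of 10 arrays above 0. Rps6, a ribosomal protein that growth signals phosphorylate, gave 0.61 ± 0.122 (adjusted p = 0.0761, limma) in its bright clone, with 10 of 10 arrays above 0, and 0.24 ± 0.226 in its dim clone. Nampt, which makes the NAD precursor, gave 0.65 ± 0.159 and 0.54 ± 0.234. Clones of one gene differed in others, since the 4 of Ppp3cb, a calcineurin subunit, ran from -0.17 to 0.67 and the 5 of Prkcz, an atypical protein kinase C, from -0.69 to 0.47.

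That disagreement also held for called genes. Several clones were present for 13 of the 27 called genes, and in 7 of the 13 all clones had the same sign. The 23 clones of these genes that were not called ran from -0.72 to 0.50 with a median of -0.12. Of them, 15 lay below 0, 6 were lower and 1 was higher at nominal p under 0.05. Only 7 of the 23 were bright, and of these 6 lay below 0. The widest range was that of Ncdn, whose 3 clones ran from -0.94 to 0.50. In Brsk2 and Cplx2 an uncalled clone was bright as well. Brsk2 had -0.98 ± 0.127 and -0.05 ± 0.161. Cplx2 had -0.83 ± 0.132, -0.01 ± 0.120 and, in a dim clone, 0.24 ± 0.200. The second clone of Atp6v0a1, also dim, gave -0.13 ± 0.226. The 3 uncalled clones of Syt4 gave 0.14 ± 0.150, 0.14 ± 0.185 and 0.24 ± 0.243. On the other side, Actb had all 3 clones below 0, at -0.82, -0.42 and -0.30, and 4 of 5 clones of Set lay below 0, at -0.72, -0.71, -0.56 and -0.08, with the fifth at 0.20. Which part of a transcript each clone carries was not analysed here.

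**Figure D3:**
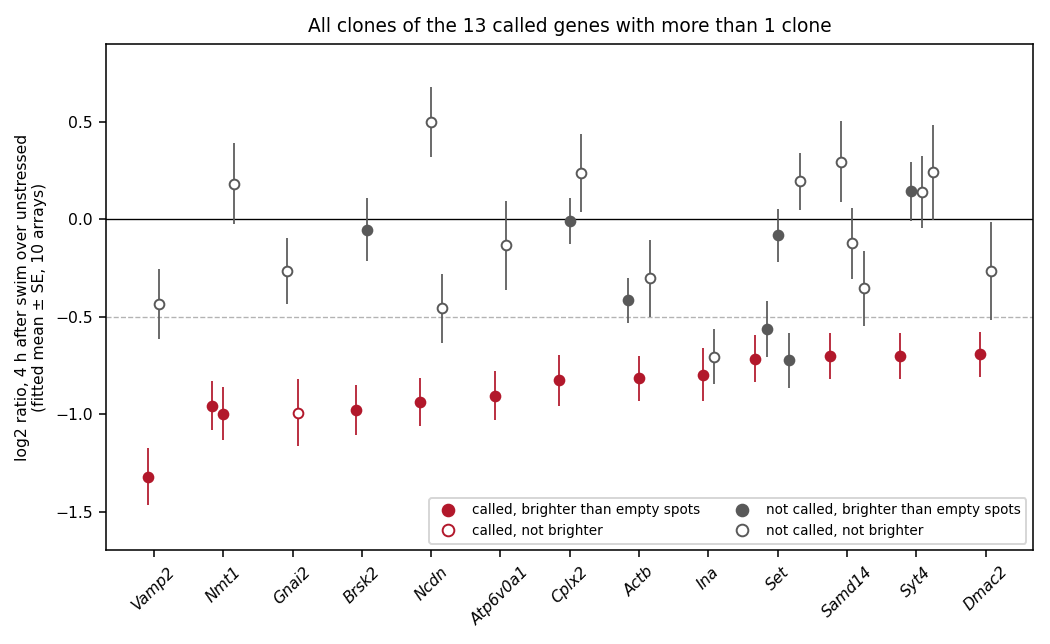
Fitted mean log2 ratio with its SE (y axis, n = 10 arrays) of every clone of the 13 called genes (x axis) that had more than 1 clone, red for called and grey for uncalled clones, filled for clones brighter than the empty-spot level and open for the others. Both clones of Ina and 2 of 3 of Nmt1 lie together, while uncalled clones of Brsk2, Cplx2 and Syt4 lie near or above 0.

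The same clones were then read in the C57BL/6J mice 4 h after the swim and in DBA/2J mice 8 h after it, each on 10 arrays against the unstressed pool of its own strain. The 8 h comparison shares the unstressed DBA/2J pool with the one at 4 h. A same sign in both cannot be told apart from a trait of that pool, so no overlap of calls and no correlation between them is given. The values come first, and the tests of the differences follow. The 32 lower clones ran from -0.07 to 0.33 in C57BL/6J at 4 h with a median of 0.12, and 3 of them lay below 0. In DBA/2J at 8 h they ran from -0.38 to 0.37 with a median of -0.02, and 20 lay below 0. In C57BL/6J at 4 h 66 clones (0.289%) were called, and in DBA/2J at 8 h 36 (0.158%). None of the 35 was among the 66, but with shares this small that says nothing about the strains. Vamp2, at -1.32 in DBA/2J at 4 h, gave 0.33 ± 0.0998 in C57BL/6J and -0.20 ± 0.123 at 8 h, Trh gave 0.33 ± 0.10 and 0.06 ± 0.158, and Map1lc3a 0.06 ± 0.107 and 0.06 ± 0.131. Actb differed in this, with 0.19 ± 0.0802 in C57BL/6J but -0.38 ± 0.0799 in DBA/2J at 8 h.

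**Figure D4:**
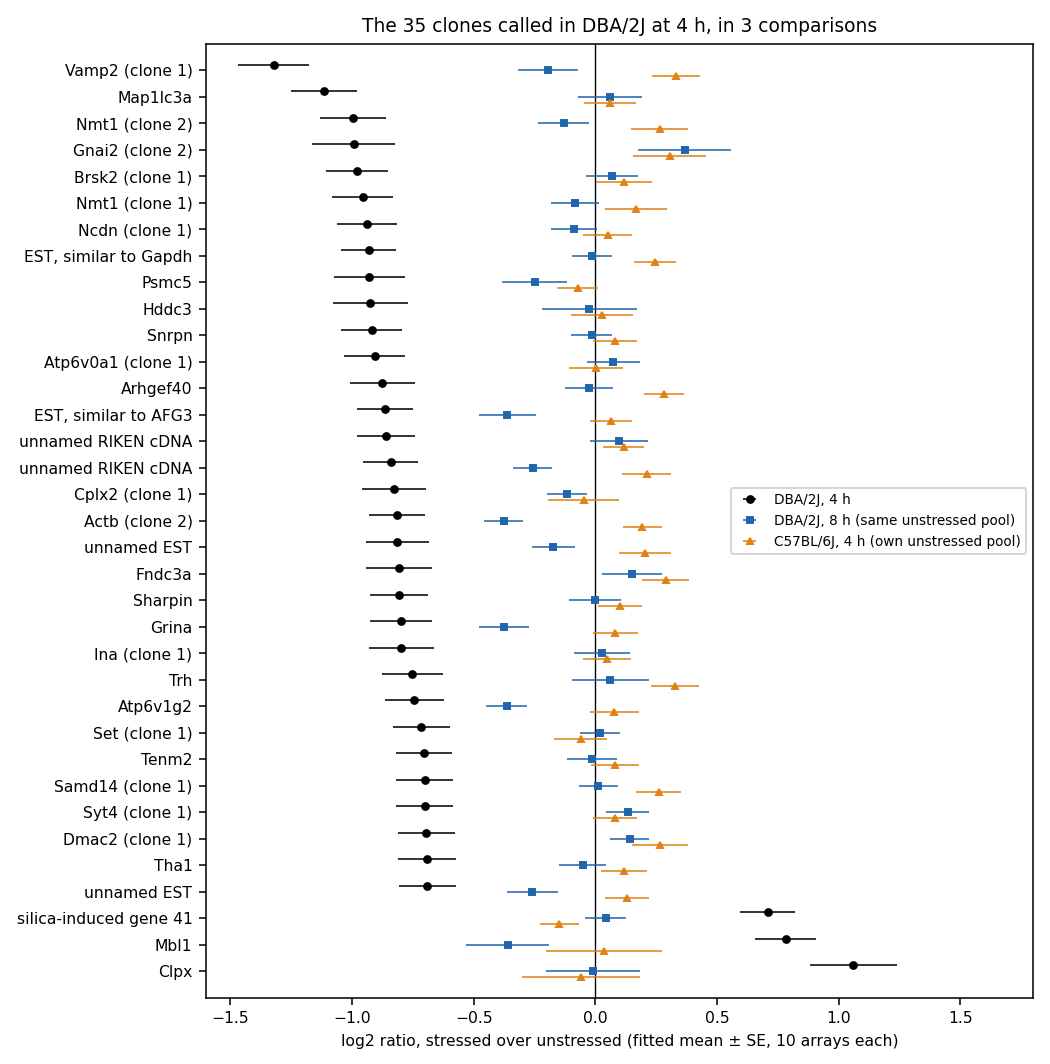
Fitted mean log2 ratio with its SE (x axis, stressed over unstressed by the labelled dyes, n = 10 arrays each) of the 35 clones called in DBA/2J at 4 h (rows), in black for that comparison, blue for DBA/2J at 8 h and orange for C57BL/6J at 4 h. The lower clones reach from -0.07 to 0.33 in C57BL/6J and from -0.38 to 0.37 at 8 h. The clones were selected on the black values.

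The difference between responses was tested for all clones in limma. Between DBA/2J and C57BL/6J at 4 h, 535 of 22824 clones (2.34%) were called, 264 higher (1.16%) and 271 lower (1.19%) in DBA/2J. They included 33 of the 35 clones, all 32 of the lower ones and silica-induced gene 41, though a clone selected for a large value at 4 h starts with an advantage in that test. Vamp2 differed by -1.65 ± 0.170 (adjusted p = 3.43e-05, limma) and Trh by -1.08 ± 0.146 (adjusted p = 3.21e-04, limma). Some clones were called for the difference more through C57BL/6J than through DBA/2J. Arfgef1, a guanine nucleotide exchange factor of the Golgi, gave 0.55 ± 0.150 and 0.41 ± 0.135 in its 2 brighter clones in DBA/2J but -1.07 ± 0.0907 and -0.91 ± 0.0875 in C57BL/6J, differences of 1.62 ± 0.168 and 1.33 ± 0.148. Zranb2, a splicing factor, gave 0.52 ± 0.150 and -0.96 ± 0.0840, a difference of 1.49 ± 0.164. Syp lay on opposite sides of 0, with -0.87 ± 0.178 in DBA/2J and 0.57 ± 0.196 in C57BL/6J, a difference of -1.43 ± 0.270 (adjusted p = 0.00470, limma).

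Between the 4 h and 8 h responses of DBA/2J, 229 clones (1.00%) were called, 101 higher (0.443%) and 128 lower (0.561%) at 4 h. All mice were killed at the same time of day, so those of the 8 h group swam earlier in the day. Hours since the swim and its time of day cannot be told apart here. The counts by clone follow. The 229 clones included 27 of the 35, with 25 of the 32 lower ones, but selection on the 4 h values gave these clones an advantage in this test too. Map1lc3a differed by -1.18 ± 0.180 (adjusted p = 0.00450, limma) and Gnai2 by -1.36 ± 0.261 (adjusted p = 0.0144, limma). The 7 lower clones not called there included Psmc5, Hddc3, Grina, Actb and Atp6v1g2, of which Actb, Grina and Atp6v1g2 lay at -0.38 to -0.36 at 8 h. Ptges3, a co-chaperone of Hsp90, was called through its 8 h value of -0.88 ± 0.0815, with 0.29 ± 0.120 at 4 h. By list, the 91 synaptic vesicle clones had 9 called lower and 1 higher against C57BL/6J and 3 lower and 1 higher against 8 h. The 174 cytoskeletal clones had 14 lower and 4 higher against C57BL/6J and 6 and 2 against 8 h, and the 64 autophagy and vacuolar ATPase clones 6 and 0 and then 4 and 0. The 128 chaperone clones had 2 called lower and 11 higher against C57BL/6J and 1 and 6 against 8 h. Over all clones, 1.19% were lower and 1.16% higher against C57BL/6J, and 0.561% lower and 0.443% higher against 8 h.

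Markers of cell types in and around the PVN were counted in the same way. Over all clones 0.153% were called and, at nominal p under 0.05, 5.25% were higher and 5.42% lower. Neuronal markers (46 clones, 18 bright) had 0 called, 2 higher (4.35%) and 5 lower (10.9%) at nominal p under 0.05. Their median was -0.06, with array medians from -0.17 to 0.12, and their clones ran from -0.87 to 0.62. Thy1, a neuronal surface protein, gave -0.64 ± 0.134 (adjusted p = 0.0816, limma). Slc17a6, another neuronal marker, went the other way, between 0.505 and 0.747 with any 1 array left out. Astrocyte markers (60 clones, 30 bright) had 0 called, 3 higher (5.00%) and 10 lower (16.7%), and array medians from -0.35 to 0.16. Their median was -0.11 with the stressed pool in Cy5 alone and 0.01 with it in Cy3 alone. At nominal p under 0.05, 9 of their 30 bright clones (30.0%) were lower, against 10.1% of all bright clones. Their members Atp1b2 and Aldoc gave -0.67 ± 0.130 and -0.56 ± 0.131, and both, like Glul, passed among bright clones alone. Gpm6b, another astrocyte marker, passed there on the higher side, at 0.55. The Aldoc clone, 1 of 4 of that gene, had a mean of -1.01 on the Cy5 arrays and -0.12 on the Cy3 arrays. Oligodendrocyte markers (50 clones) had 1 higher and 1 lower, microglial ones (19 clones) 2 and 0, endothelial and mural ones (39 clones) 2 and 4, and those of choroid plexus and ependyma (14 clones) 0 and 1. Blood cell markers (5 clones) were all below the empty-spot level, with array medians from -0.84 to 0.41. Markers of neighbouring regions gave 1 higher and 2 lower for thalamus (25 clones), 1 and 1 for cortex, hippocampus and striatum (28 clones) and 2 and 1 for other hypothalamic nuclei (14 clones).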

How the data were processed

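RNA of 1 pool of 6 animals per condition was hybridised to spotted 24K mouse cDNA arrays. Per the file headers, the deposited spot tables hold spot intensity and local background of 24192 spots per channel from fixed-circle quantification, not normalized. The authors also deposited a table of processed log2 ratios for 19047 spots (array medians -0.0059 to 0.0073, 2290 empty cells in the 10 arrays), whose normalization is not given in the sources used here and which served as an alternative. The direction of each ratio was taken from the labelled dyes. Spots were background-corrected by normexp (offset 50), normalized by loess within each array with control spots at weight 0, and fitted in limma 3.58.1 (R 4.3.3) with response and dye orientation as terms. P-values were two-sided and adjusted by Benjamini-Hochberg over 22824 clones. A clone was called at an absolute log2 ratio of at least 0.5, the methods' fold, with adjusted p under 0.05. The methods' Z-score was not used. Differences between comparisons were contrasts over 20 arrays. The number of arrays limits the precision. The same fit was also run on simulated log2 ratios with known changes. It recovered most of the largest changes but few of those at the threshold of 0.5. A clone or list that was not called is therefore not shown to be unchanged.

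Clone descriptions were matched to RefSeq symbols: 9055 clones received 6162 symbols, and 13769 stayed unnamed. One called clone (Ina) was named by its spot in the study's list. Named were all called clones, the study's 15 example genes, up to 3 clones per list with the smallest p, and up to 6 per direction with the largest difference in each contrast. The clones, the 30 gene lists and the tests were chosen with earlier results of these data known, so lists are described by counts and medians only. Alternatives covered background, normalization, a filter on dim clones, the dye term, the methods' t-test, single orientations, averaged orientations, the authors' values, scan day, all 50 arrays and each array left out. Figures were drawn with matplotlib 3.10.9 in Python 3.11.15.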

Additional observations from a re-analysis of the deposited data

Results flagged for a closer look

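In 2 of the 35 called clones 1 array stood far from the other 9, where chance alone gives about 1 in 20: Ina with its lowest array at -1.66 and Hddc3 with its lowest at -1.88. With any 1 array left out, the mean of that Ina clone ran from -0.84 to -0.71 and that of Hddc3 from -1.01 to -0.82.

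The response differed from that of C57BL/6J at 4 h, by limma's test of the difference, for these clones of the named genes. Lower in DBA/2J were Vamp2 (-1.65), Syp (-1.43), Gpt (-1.31), Ankrd13d (-1.31), Gnai2 (-1.30) and Nmt1 (-1.26). Higher were Arfgef1 (1.62 and 1.33 in 2 clones), Ogfrl1 (1.54), Zranb2 (1.49), Nampt (1.21) and Gpm6b (1.20).

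The response at 4 h differed from that at 8 h within DBA/2J, by the same test, for further clones. Lower at 4 h were Gnai2 (-1.36), Sox1 (-1.35), Map1lc3a (-1.18), Gpt (-1.17), Cacnb3 (-1.16) and Lin37 (-1.13). Higher at 4 h were Tmem258 (1.31), Ptges3 (1.17), Mbl1 (1.14), Syt13 (1.07), Ppp3cb (1.04) and Canx (1.03). The 8 h comparison shares the unstressed pool with that at 4 h, and its stressed mice swam earlier in the day.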

How the results depend on the processing

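Of the 35 clones called, none changed sign under any alternative that gave it a value, which was 31 of them with the filter on dim clones. They were selected on these same arrays and 34 had 1 sign on all 10, so the alternatives could hardly turn the sign. The number called moved. Against the 35 of the main setting, 19 were called without background subtraction, 76 with median centring, 224 of 4592 with a filter on dim clones (lower calls 71.9% in place of 91.4%), 21 without the dye term, 84 and 711 with the methods' t-test after Benjamini-Hochberg and before it, 75 with the authors' processed values and 355 in one fit of all 50 arrays. In limma, 0 were called from the Cy5 orientation alone, from the Cy3 orientation alone and within either scan day, and 1 when each orientation was averaged. At an unadjusted p under 0.05, 2434 clones passed in the main setting. Leaving out 1 array gave 12 to 17 calls, so every array moved the count by over 1.5 times; 12 of the 35 clones were called in all 10 such fits and 11 in none. For the difference from C57BL/6J, 535 calls became 866 with the filter, 274 without the dye term, 344 and 1756 with the t-test adjusted and not, 0 and 9 in single orientations (Cy5, Cy3), 0 averaged and 389 to 490 with 1 array left out. For the difference from 8 h, 229 became 74 without the dye term, 1432 with the unadjusted t-test, 0 in each orientation alone and averaged, 373 with all 50 arrays and 120 to 203 with 1 array left out. With the replicate block, 127 and 0 clones were called for these differences. The numbers do not pair the arrays, since 0 of 10 pairs correlated above 0.1 in either, and 2 and 0 of 10 arrays correlated best with their own number. Except where a value above shows fewer arrays or clones, the cause was not tested. Signal near background limits the clones that are not bright most, with a median SE of 0.194 against 0.137.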
